A study of Mus musculus with 6 samples.

Results

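Lysine methylation of histones is written by methyltransferases and removed by demethylases, and 62 mouse genes of these families were followed in T cells of WT and Prmt5 deletion genotypes. The members were chosen by name, as protein-coding genes of the Kmt2, Kmt5, Setd, Suv39h, Ehmt, Ezh, Nsd, Smyd, Prdm and Kdm families with Eed, Suz12 and Dot1l, among 22040 protein-coding genes and 54525 genes in all. Of 67 protein-coding matches, 4 on the X or Y chromosome were left out, and 1 more left out by the choice is not reported here. Naive CD4 T cells from spleen and lymph nodes of C57BL/6 mice had been stimulated for 72 hours with coated antibodies to CD3 and CD28, together with human TGFβ and mouse IL-6. That cytokine pair turns CD4 T cells toward the Th17 type, and every culture received it. WT stands for 3 cultures of genotype iCD4-PRMT5fl/fl. KO stands for 3 cultures of genotype iCD4-PRMT5delta/delta. The labels give neither the age nor the sex of the mice, and they do not spell out what the iCD4 prefix stands for. Every KO column header joins a number of its own to a number that all KO headers share, so whether the KO cultures came from separate animals is not certain, and p-values measure the spread between these cultures.

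Methyl groups on histone lysines act mainly through the residue that carries them. Methylation of lysine 4 of histone H3 (H3K4) and of lysine 36 (H3K36) marks active promoters, enhancers and transcribed gene bodies, whereas methylation of lysine 9 (H3K9) and lysine 27 (H3K27) marks heterochromatin and genes silenced by Polycomb. Most writers carry a SET domain, Dot1l being the exception, and erasers are either amine oxidases (Kdm1a and Kdm1b) or JmjC-domain enzymes (the other Kdm genes). In helper T cells, Ezh2 and Kmt2a are known for holding cytokine genes in silent or active states, and Prdm1 encodes Blimp-1, a repressor of effector cytokine genes. PRMT5 itself methylates arginines, among them histone arginines, and is not a lysine methyltransferase.

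Levels are CPM values (counts scaled to library size) after TMM scaling, and library values are printed in the order of replicates 1 to 3. The targeted gene, Prmt5 on chromosome 14, had 109, 137 and 118 CPM in WT and 52.4, 43.8 and 52.9 CPM in KO. The groups did not overlap, and Prmt5 fell to a mean of 49.7 ± 5.11 CPM from 121 ± 14.0 CPM (log2 change -1.29 ± 0.11, edgeR adjusted p = 0.000120). Library totals ran from 36011906 to 43141474 counts. Values after ± are the SD over 3 libraries for a level and the SE for a log2 change of KO over WT.

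Of the 62 members, 56 passed the low-count filter. Among them 26 were called by the edgeR quasi-likelihood test at a Benjamini-Hochberg adjusted p under 0.05, which is 46.4%, beside 42.5% of all 16006 genes tested and 47.4% of the protein-coding ones. In KO 17 members rose (30.4%, beside 21.7% of all genes) and 9 fell (16.1%, beside 20.9%). With libraries scaled on spike-in RNA the counts were 15 and 3. That setting called 27.8% of all genes, with 3085 higher and 1363 lower, instead of 3466 and 3343. The WT and KO libraries did not overlap for 31 members (55.4%), beside 55.6% of all genes. The median log2 change was 0.03 over the members and -0.00 over all genes. The family as a whole therefore moved about as often as the rest of the transcriptome, and its members moved in both directions. Large changes were few. The log2 change was at least 1 in size for 6 called members (10.7%, beside 14.6% of all genes), among them Kmt2a and Kdm4d above WT and Prdm1, Prdm9 and Prdm16 below it. By role, 8 of 22 writers rose and 2 fell, while 3 of 13 erasers rose and 1 fell. Of the remaining tested members, 1 of 2 noncatalytic PRC2 subunits rose, and among 19 members grouped as relatives (the tested Prdm, Smyd and most other Setd genes with Kmt2e and Kdm8) 5 rose and 6 fell. These counts, and those of the groups and lists below, stand beside 21.7% of all genes called higher and 20.9% called lower. Whether any group differs from these shares was not tested.

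**Figure D1:**
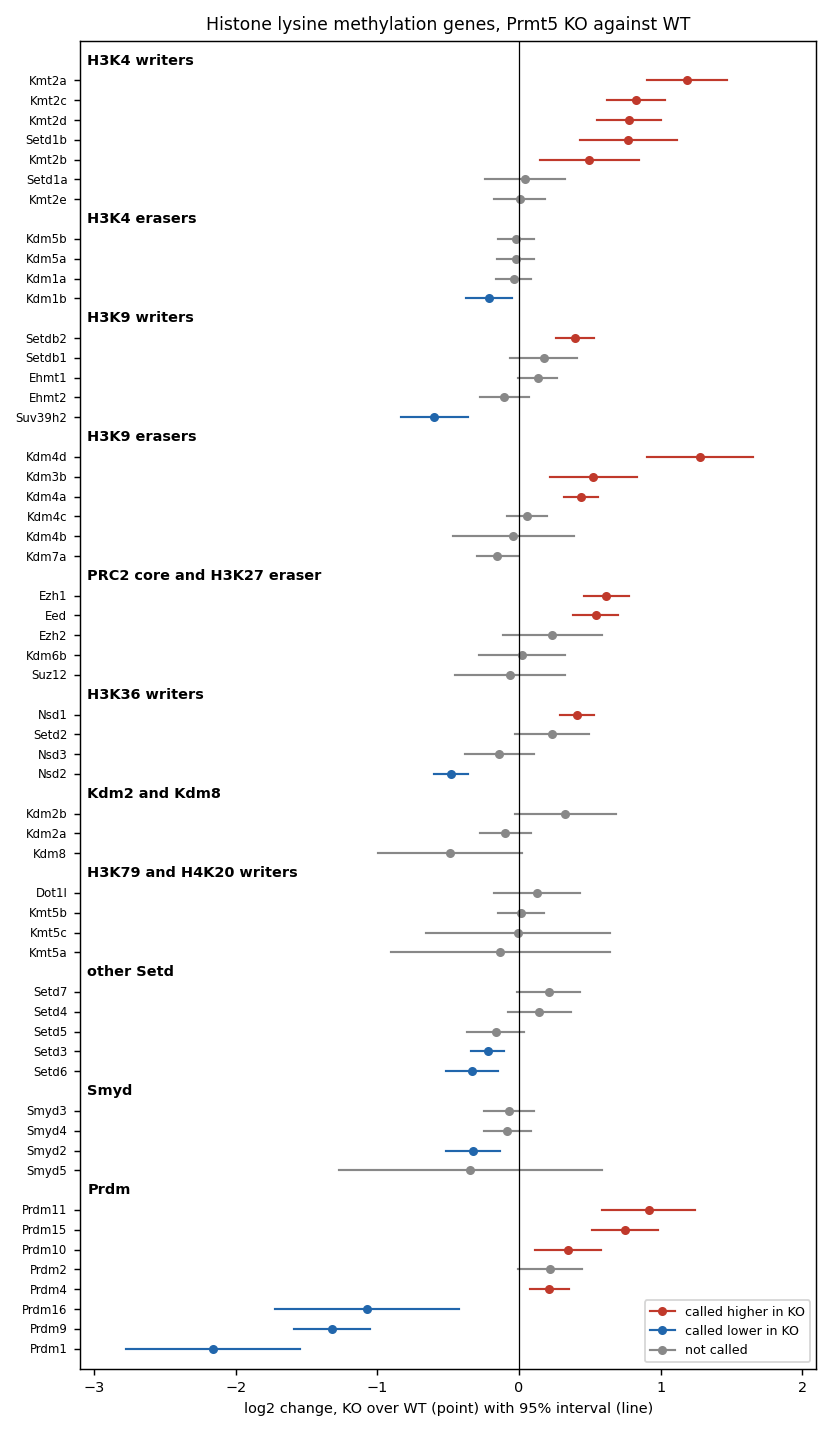
Log2 change of KO over WT for the tested members that are reported by name, grouped by residue and role, with the 95% interval from the edgeR fit as a line. Red points are members called higher, blue points the 9 called lower and grey points the 30 not called. The H3K4 writers lie at or to the right of 0, and the Prdm genes spread to both sides.

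Among the H3K4 writers 5 of 7 tested members rose and none fell, with a median log2 change of 0.77. Over all genes 21.7% were called higher and 20.9% lower. This group holds the Kmt2 and Setd1 genes, Kmt2e included. Setd7 and Prdm9, which can also methylate H3K4, are described with their own families, and of these Setd7 was not called and Prdm9 fell. Promoter sequences of Kmt2a, Kmt2c and Kmt2d are shown as examples of writers that rose. Each window runs from 250 bases before to 50 bases after the RefSeq start on GRCm38.p6, 5′ to 3′ on the gene's own strand. Capitals mark the GC box, GGGCGG or its reverse complement, the letters bound by Sp-family factors. The Kmt2a window is chr9:44881240-44881539, that of Kmt2c is chr5:25498734-25499033 and that of Kmt2d is chr15:98871156-98871455, all on the minus strand.
Kmt2a: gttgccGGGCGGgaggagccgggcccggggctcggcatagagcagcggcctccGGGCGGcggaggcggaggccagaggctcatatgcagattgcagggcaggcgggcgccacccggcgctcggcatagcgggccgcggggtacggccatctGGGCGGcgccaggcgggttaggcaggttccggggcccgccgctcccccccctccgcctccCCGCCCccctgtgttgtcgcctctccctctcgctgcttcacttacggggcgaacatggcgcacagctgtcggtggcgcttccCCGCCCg
Kmt2c: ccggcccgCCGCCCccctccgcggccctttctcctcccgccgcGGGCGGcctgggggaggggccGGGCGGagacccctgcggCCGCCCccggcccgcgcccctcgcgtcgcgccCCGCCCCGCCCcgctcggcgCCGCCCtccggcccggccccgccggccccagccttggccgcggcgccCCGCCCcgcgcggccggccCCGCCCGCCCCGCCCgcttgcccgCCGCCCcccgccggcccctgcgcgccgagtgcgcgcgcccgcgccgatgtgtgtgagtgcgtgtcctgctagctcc
Kmt2d: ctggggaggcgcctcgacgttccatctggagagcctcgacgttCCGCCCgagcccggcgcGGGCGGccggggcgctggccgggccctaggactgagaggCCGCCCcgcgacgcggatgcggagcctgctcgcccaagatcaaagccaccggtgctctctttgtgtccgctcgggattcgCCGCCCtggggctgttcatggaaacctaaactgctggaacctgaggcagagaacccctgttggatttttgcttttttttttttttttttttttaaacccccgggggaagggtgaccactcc
The Kmt2a window held 5 GC boxes, the Kmt2c window 12 and the Kmt2d window 4, counting matches on both strands and counting overlapping matches separately. At least 1 GC box was found in 35.7% of all 32851 RefSeq windows of this length and in 29 of the 46 members that have a window in that table (63.0%). The first share counts windows, whether or not their genes were tested here. The second counts member genes with a match in any window, so the shares are not fully alike. By call, it was found in 6 of 12 members that rose, 7 of 8 that fell and 15 of 22 that were not called. A link between the GC box and the calls was not tested. Base composition was high too, with 75.7% G or C in the Kmt2a window, 88.0% in that of Kmt2c and 62.7% in that of Kmt2d. These matches describe letters in the windows, and whether any factor binds there was not measured.

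Kmt2a, also called MLL1, places trimethyl marks at promoters of developmental genes and of memory T helper cytokine genes. It lies at chr9:44803355-44881296 in GENCODE M21 on GRCm38. Its level was 26.5, 24.5 and 20.0005 CPM in WT and 48.9, 59.3 and 53.6 CPM in KO. Every KO library lay above every WT library, and Kmt2a rose 2.28-fold, from 23.7 ± 3.33 to 53.9 ± 5.23 CPM (log2 change 1.19 ± 0.12, edgeR adjusted p = 0.000266, 95% interval 0.91 to 1.47). Kmt2c and Kmt2d encode MLL3 and MLL4, the main monomethylases of enhancers. Kmt2c was measured at 68.7, 73.3 and 69.3 CPM in WT and 114, 141 and 119 CPM in KO, a rise of 1.77-fold without overlap (log2 change 0.82 ± 0.09, edgeR adjusted p = 0.000321). For Kmt2d the libraries gave 23.3, 22.0 and 19.2 CPM in WT and 33.9, 38.4 and 38.1 CPM in KO. Here too the groups stood apart, and the rise was 1.71-fold (log2 change 0.78 ± 0.10, edgeR adjusted p = 0.000682). Setd1b, a catalytic subunit of the COMPASS complex that supplies much promoter trimethylation, rose 1.71-fold from 2.63 ± 0.339 to 4.49 ± 0.263 CPM (log2 change 0.77 ± 0.15, edgeR adjusted p = 0.00458). Kmt2b, the closest relative of Kmt2a, rose 1.41-fold from 12.9 ± 2.43 to 18.2 ± 1.83 CPM (log2 change 0.50 ± 0.15, edgeR adjusted p = 0.0315).

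The other H3K4 writers were not called. Setd1a, the paralog of Setd1b, had 4.67, 4.45 and 4.29 CPM in WT and 4.95, 4.505 and 4.35 CPM in KO. These ranges overlapped, with KO replicate 1 above every WT library, and the log2 change was 0.04 ± 0.12 (edgeR adjusted p = 0.807). Kmt2e, whose SET domain is not known to be active, averaged 83.9 ± 0.615 CPM in WT and 84.2 ± 8.52 CPM in KO (log2 change 0.01 ± 0.08, edgeR adjusted p = 0.963). Exons of Srpk2 on the opposite strand cover 9.31% of its exon bases. Both Setd1 paralogs are scarce. Per kilobase of transcript, Setd1b was the lowest of all 56 tested members in WT at 0.297 CPM, and Setd1a stood at 0.689 CPM, beside 69.5 CPM for the highest, Setd3.

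Beside these writers, the H3K4 erasers were mostly not called, with 0 of 4 higher, 1 lower and a median log2 change of -0.03. Kdm1a, the amine oxidase LSD1 that removes mono- and dimethyl marks, had 127, 133 and 127 CPM in WT and 128, 121 and 129 CPM in KO. The groups overlapped, and the 95% interval of the log2 change ran from -0.16 to 0.09. Kdm5b, a JmjC enzyme that removes trimethyl marks, stood at 87.7, 87.0 and 88.4 CPM in WT and 83.1, 90.0 and 86.3 CPM in KO. Again the libraries intermixed, with an interval from -0.15 to 0.11. Its paralog Kdm5a averaged 256 ± 6.95 CPM in WT and 252 ± 13.7 CPM in KO (log2 change -0.02 ± 0.06, edgeR adjusted p = 0.764). Kdm1b, a paralog of LSD1, was the exception with 58.3, 55.2 and 54.9 CPM in WT and 51.3, 45.1 and 48.8 CPM in KO. Its groups did not overlap and it fell by 0.21 ± 0.07 on the log2 scale (edgeR adjusted p = 0.0411). This fall kept its call in 4 of 16 alternative settings, and 9.19% of the Kdm1b exon bases overlap exons of Dek on the opposite strand.

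**Figure D2:**
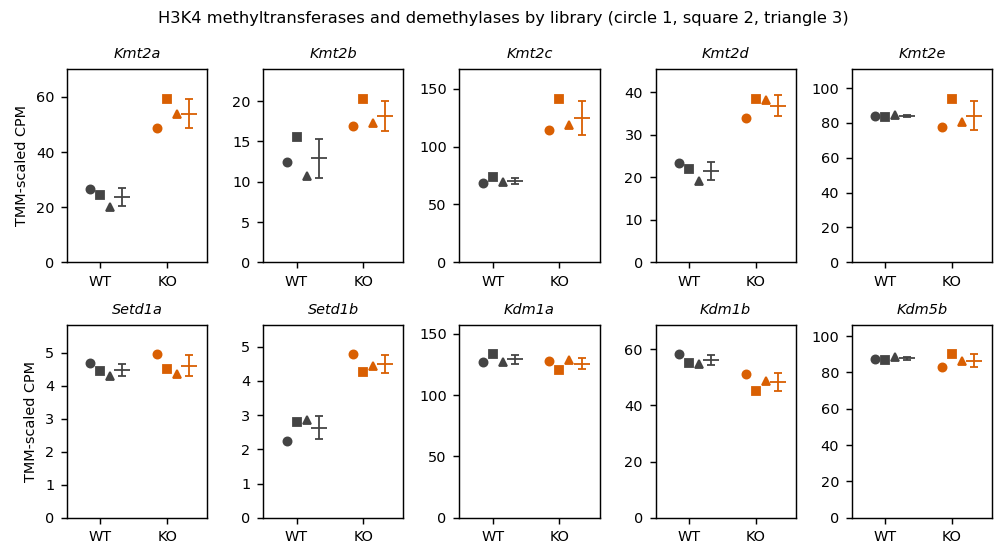
TMM-scaled CPM of H3K4 methyltransferases and demethylases in each library (circle, square and triangle are replicates 1, 2 and 3), with mean and SD as bars. Kmt2a, Kmt2b, Kmt2c, Kmt2d and Setd1b lie higher in all KO libraries, while Kmt2e, Setd1a, Kdm1a and Kdm5b overlap between genotypes.

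Transcript length differed between these members and moved with the result. Kmt2a, Kmt2b, Kmt2c, Kmt2d and Setd1b all have deposited lengths over 8000 bases, as did 14 tested members in all, of which 7 rose and 1 fell. Among the 42 shorter members 10 rose and 8 fell. Over all tested protein-coding genes longer than 8000 bases, 38.0% were called higher and 20.3% lower with a median log2 change of 0.13. Tested protein-coding genes of up to 1000 bases gave 15.2% higher, 32.4% lower and a median of -0.12. The part of length in the rise of the Kmt2 genes was not tested. Without WT replicate 1 or 3, or without any single KO library, Kmt2b lost its call.

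Polycomb repressive complex 2 (PRC2) methylates H3K27 with Ezh1 or Ezh2 as its catalytic subunit and with Eed and Suz12 as core subunits. In KO, Ezh1 and Eed rose and none of the 5 tested genes of this group fell. The promoter windows of all 4 subunits are shown because the subunits moved differently. Capitals mark E2F-type letters, TTTCCCGC, TTTCGCGC, TTTGCCGC or TTTGGCGC on either strand, the kind of element known from promoters of cell cycle genes. The Ezh2 window is chr6:47594981-47595280 (minus strand), that of Suz12 is chr11:79992856-79993155 (plus strand), that of Ezh1 is chr11:101226414-101226713 (minus strand) and that of Eed is chr7:89980927-89981226 (minus strand).
Ezh2: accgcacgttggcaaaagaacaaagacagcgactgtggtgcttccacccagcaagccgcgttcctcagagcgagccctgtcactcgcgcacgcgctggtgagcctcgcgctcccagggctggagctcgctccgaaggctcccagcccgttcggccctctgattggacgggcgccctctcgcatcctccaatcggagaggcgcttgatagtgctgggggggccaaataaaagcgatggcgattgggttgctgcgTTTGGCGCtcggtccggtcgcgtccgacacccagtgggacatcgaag
Suz12: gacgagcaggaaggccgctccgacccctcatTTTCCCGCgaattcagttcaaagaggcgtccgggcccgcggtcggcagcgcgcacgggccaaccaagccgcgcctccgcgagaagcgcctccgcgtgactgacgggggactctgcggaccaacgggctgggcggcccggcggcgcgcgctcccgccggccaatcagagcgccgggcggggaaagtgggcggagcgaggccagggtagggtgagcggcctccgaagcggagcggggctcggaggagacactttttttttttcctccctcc
Ezh1: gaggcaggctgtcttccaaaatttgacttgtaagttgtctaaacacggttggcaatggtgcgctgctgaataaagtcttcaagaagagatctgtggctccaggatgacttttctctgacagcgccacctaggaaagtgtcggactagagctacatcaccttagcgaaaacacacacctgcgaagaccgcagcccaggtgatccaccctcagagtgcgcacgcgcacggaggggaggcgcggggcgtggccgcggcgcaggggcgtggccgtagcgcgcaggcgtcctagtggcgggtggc
Eed: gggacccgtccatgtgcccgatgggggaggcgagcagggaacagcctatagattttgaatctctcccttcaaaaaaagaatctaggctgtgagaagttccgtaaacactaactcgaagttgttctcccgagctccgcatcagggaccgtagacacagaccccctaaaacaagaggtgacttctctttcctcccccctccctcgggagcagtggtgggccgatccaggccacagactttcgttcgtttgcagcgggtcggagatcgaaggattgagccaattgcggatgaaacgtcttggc
Ezh2 and Suz12, which were not called, each held 1 such match, and Ezh1 and Eed, which rose, held 0. These 4 windows were chosen for the difference in calls, and over all members with a window the letters were found in 1 of 12 that rose, 0 of 8 that fell and 3 of 22 that were not called. The letters occurred in 2.26% of all RefSeq windows and in 4 of the 46 members with a window (8.70%), the others being Kmt5c, which was not called, and Prdm4, which rose. As for the GC box, the first share counts windows and the second counts genes. None of the marked letters overlapped a GC box, and what binds them was not measured.

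Ezh1, the catalytic subunit that predominates in resting cells, had 40.2, 39.4 and 40.1 CPM in WT and 57.3, 60.9 and 65.4 CPM in KO. Its groups stood clearly apart, and Ezh1 rose 1.53-fold (log2 change 0.62 ± 0.07, edgeR adjusted p = 0.000387). Eed, the subunit that reads trimethylated H3K27 and stimulates the enzyme, stood at 127, 135 and 128 CPM in WT and 202, 173 and 191 CPM in KO. It rose 1.45-fold, again without overlap (log2 change 0.54 ± 0.07, edgeR adjusted p = 0.000737). Ezh2, the catalytic subunit of dividing cells, had 191, 126 and 173 CPM in WT and 201, 170.0 and 205 CPM in KO. WT replicate 2 lay far below the other WT libraries, the groups overlapped and the log2 change was 0.23 ± 0.15 (95% interval -0.12 to 0.58, edgeR adjusted p = 0.247). For Suz12 the libraries gave 239, 145 and 224 CPM in WT and 199.7, 190.3 and 193 CPM in KO. Once more WT replicate 2 was the low library, and Suz12 was not called (log2 change -0.06 ± 0.17, edgeR adjusted p = 0.792). Without that library Suz12 was called lower, with a log2 change of -0.26 (edgeR adjusted p = 0.00776), and Ezh2 remained without a call at 0.07 (edgeR adjusted p = 0.557).

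Per kilobase, Ezh2 transcripts outnumbered those of Ezh1 in every library. The ratio was 7.16, 4.83 and 6.497 in WT and 5.30, 4.21 and 4.72 in KO. The ranges overlapped because of WT replicate 2, so a shift between the catalytic subunits was not separable from the spread. Kdm6b, the JmjC eraser of H3K27 methylation also known as JMJD3, had 6.97, 6.34 and 5.94 CPM in WT and 5.96, 7.31 and 6.28 CPM in KO. Its groups overlapped (log2 change 0.02 ± 0.13, edgeR adjusted p = 0.906). Per kilobase in WT, Eed held rank 2 of the 56 tested members at 62.8 ± 2.04 CPM, Ezh2 rank 3 at 58.5 ± 12.0 CPM and Suz12 rank 5 at 46.4 ± 11.5 CPM. Eed and Ezh2 did not differ beyond their spread there. Eed moved to rank 1 in KO at 91.3 ± 7.25 CPM per kilobase.

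Of the H3K9 writers 1 of 5 rose and 1 fell, and of the erasers of the same mark 3 of 6 rose and none fell. Over all genes the shares were 21.7% higher and 20.9% lower. Suv39h2, which trimethylates H3K9 at pericentric heterochromatin, had 24.7, 27.6 and 23.0 CPM in WT and 17.4, 15.1 and 17.2 CPM in KO. All KO libraries were below all WT libraries, and Suv39h2 fell to 66.0% of WT (log2 change -0.60 ± 0.10, edgeR adjusted p = 0.00275). Exons of Dclre1c on the opposite strand cover 8.10% of its exon bases. Setdb2, a writer with a methyl-CpG-binding domain, rose 1.31-fold from 38.0 ± 0.357 to 49.9 ± 0.473 CPM, with the libraries of each genotype very close together (log2 change 0.39 ± 0.06, edgeR adjusted p = 0.00129). Ehmt1 and Ehmt2 encode GLP and G9a, which work as a pair in making dimethylated H3K9. Ehmt1 had 95.2, 96.7 and 99.0 CPM in WT and 109.5, 99.5 and 109.9 CPM in KO, and its log2 change of 0.13 ± 0.06 did not pass the test (edgeR adjusted p = 0.109). Ehmt2 had 187, 192 and 207 CPM in WT and 175, 171 and 199 CPM in KO, where the groups overlapped (log2 change -0.10 ± 0.07, edgeR adjusted p = 0.291). Setdb1, which silences endogenous retroviruses, stood at 37.8, 36.6 and 30.8 CPM in WT and 36.3, 42.8 and 39.6 CPM in KO. WT replicate 3 was low, the ranges overlapped, and there was no call (log2 change 0.17 ± 0.10, edgeR adjusted p = 0.210).

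Among the erasers, Kdm4d, a member of the JMJD2 family that acts on H3K9, rose most, with 2.46, 2.04 and 1.77 CPM in WT and 5.33, 5.06 and 4.79 CPM in KO. The rise was 2.43-fold and the groups did not overlap (log2 change 1.28 ± 0.16, edgeR adjusted p = 0.000663). Its close copy Kdm4dl had 1, 2 and 2 counts in WT and 19, 7 and 16 counts in KO, and how shared reads were divided is not stated. Kdm4a, which acts on trimethylated H3K9 and H3K36, had 122, 133 and 128 CPM in WT and 169, 174 and 176 CPM in KO. All KO libraries were higher, a rise of 1.35-fold with small spread (log2 change 0.44 ± 0.05, edgeR adjusted p = 0.000572). Kdm3b, an eraser of mono- and dimethylated H3K9, rose 1.44-fold from 48.9 ± 8.93 to 70.5 ± 3.60 CPM (log2 change 0.53 ± 0.13, edgeR adjusted p = 0.0146), a call that was lost without KO replicate 2. Kdm4c (log2 change 0.06 ± 0.06, edgeR adjusted p = 0.494), Kdm4b (log2 change -0.04 ± 0.18, edgeR adjusted p = 0.878) and Kdm7a (log2 change -0.15 ± 0.06, edgeR adjusted p = 0.0839) were not called.

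Among the H3K36 writers 1 of 4 rose and 1 fell. Nsd1 and Nsd2 both make dimethylated H3K36. Nsd1, at chr13:55209782-55318325 in GENCODE M21 on GRCm38, had 286, 268 and 291 CPM in WT and 378, 377 and 369 CPM in KO, with all KO libraries above WT, and rose 1.33-fold (log2 change 0.41 ± 0.05, edgeR adjusted p = 0.000655). Nsd2, at chr5:33820725-33897975, had 282, 296 and 289 CPM in WT and 217, 202 and 203 CPM in KO, with all KO libraries below WT, and fell to 71.7% of WT (log2 change -0.48 ± 0.05, edgeR adjusted p = 0.000359). Per kilobase, the ratio of Nsd1 to Nsd2 was 0.594 ± 0.0369 in WT and 1.10 ± 0.0384 in KO, below 1 in every WT library and above 1 in every KO library. Nsd3, the third paralog, averaged 216 ± 20.7 CPM in WT and 196 ± 24.3 CPM in KO and was not called (log2 change -0.14 ± 0.10, edgeR adjusted p = 0.321). Setd2, the trimethylase that travels with elongating RNA polymerase II, had 41.8, 53.2 and 40.7 CPM in WT and 49.6, 56.5 and 53.5 CPM in KO. WT replicate 2 lay among the KO libraries, and Setd2 was not called (log2 change 0.23 ± 0.11, edgeR adjusted p = 0.136). Without WT replicate 2 it was called higher at a log2 change of 0.36 (edgeR adjusted p = 0.00556). With libraries scaled on spike-in RNA, the falls of Nsd2 (-0.34, edgeR adjusted p = 0.237) and Suv39h2 (-0.45, edgeR adjusted p = 0.117) lost their calls.

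**Figure D3:**
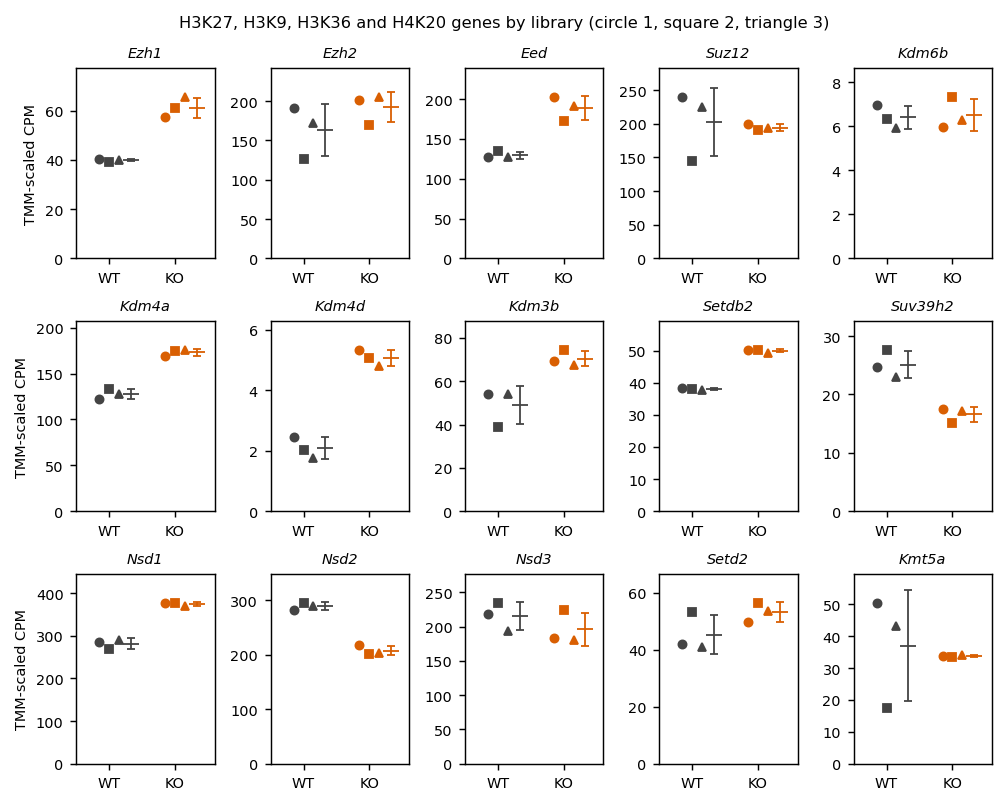
TMM-scaled CPM in each library for H3K27, H3K9, H3K36 and H4K20 genes (circle, square and triangle are replicates 1, 2 and 3), with mean and SD as bars. Nsd1 lies higher and Nsd2 lower in all KO libraries, and WT replicate 2 is the low WT library for Ezh2, Suz12, Kdm3b and Kmt5a.

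The H3K36 erasers Kdm2a and Kdm2b, of which Kdm2b also brings a variant PRC1 to CpG islands, and their JmjC relative Kdm8 gave 0 calls of 3. Kdm2a had a log2 change of -0.10 ± 0.08 (edgeR adjusted p = 0.365). Kdm2b ranged from 15.1 to 23.2 CPM in WT and from 24.5 to 25.8 CPM in KO, without overlap but without a call (log2 change 0.33 ± 0.15, edgeR adjusted p = 0.124). Kdm8 ranged from 5.87 to 10.2 CPM in WT and from 4.72 to 6.20 CPM in KO (log2 change -0.49 ± 0.22, edgeR adjusted p = 0.110).

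Writers of H3K79 and H4K20 methylation gave 0 calls of 4. Dot1l, the writer of H3K79 without a SET domain, had 11.5, 12.4 and 9.79 CPM in WT and 11.8, 11.2 and 13.8 CPM in KO, overlapping between genotypes (log2 change 0.13 ± 0.13, edgeR adjusted p = 0.476). Kmt5a, which makes the monomethyl mark on H4K20 during the cell cycle, had 50.5, 17.4 and 43.2 CPM in WT and 33.7, 33.5 and 34.1 CPM in KO. WT replicate 2 lay at 0.373 times the mean of the other WT libraries, and the 95% interval of the log2 change was wide, from -0.91 to 0.64. Without that library Kmt5a was called lower, at -0.48 (edgeR adjusted p = 0.00212). Kmt5b and Kmt5c add further methyl groups to this residue. Kmt5b had a log2 change of 0.01 ± 0.07 (edgeR adjusted p = 0.899), and Kmt5c one of -0.01 ± 0.28 (edgeR adjusted p = 0.988).

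Among the SET-domain relatives of the Setd and Smyd families, many of which are known for substrates other than histones, 3 of 9 tested genes fell and none rose. That stands beside 20.9% of all genes called lower and 21.7% called higher. Setd3, the histidine methyltransferase of actin, was the most abundant member per kilobase in WT. It had 207, 215 and 216 CPM in WT and 179, 188 and 179 CPM in KO, without overlap, and fell to 85.7% of WT (log2 change -0.22 ± 0.05, edgeR adjusted p = 0.00843). Setd6, which methylates the NF-κB subunit RelA, had 32.6, 29.7 and 28.7 CPM in WT and 24.5, 24.8 and 23.1 CPM in KO. It fell by 0.33 ± 0.08 on the log2 scale (edgeR adjusted p = 0.0126). Smyd2, known for methylating p53, had 57.1, 57.9 and 67.6 CPM in WT and 48.4, 46.6 and 50.7 CPM in KO. It fell by 0.33 ± 0.08 on the log2 scale (edgeR adjusted p = 0.0162). In each of these genes every KO library lay below every WT library. All 3 falls lost their call with spike-in scaling, that of Smyd2 also without KO replicate 1 or 2 and that of Setd6 also without KO replicate 3. Setd4 (log2 change 0.14 ± 0.10, edgeR adjusted p = 0.265), Setd5 (log2 change -0.17 ± 0.09, edgeR adjusted p = 0.166) and Setd7 (log2 change 0.21 ± 0.10, edgeR adjusted p = 0.116) were not called, and neither were Smyd3 (log2 change -0.07 ± 0.08, edgeR adjusted p = 0.492), Smyd4 (log2 change -0.08 ± 0.07, edgeR adjusted p = 0.386) and Smyd5. Without WT replicate 2 Setd5 was called lower, at -0.26 (edgeR adjusted p = 0.00746). Smyd5 ranged widest, with 10.6, 31.7 and 13.0 CPM in WT and 14.0, 11.4 and 18.2 CPM in KO, where WT replicate 2 stood far above all other libraries. Without it the log2 change of Smyd5 went from -0.34 to 0.29, with no call (edgeR adjusted p = 0.252). Smyd1, a muscle gene, failed the low-count filter at 5 to 21 counts per library.

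The Prdm genes, zinc finger regulators whose PR domain is related to the SET domain, held the largest fall of any tested member, that of Prdm1. Of 14 genes 9 were tested, of which 5 rose, 3 fell and 1 was not called, beside 21.7% of all genes higher and 20.9% lower. Prdm1, at chr10:44437177-44528501 in GENCODE M21 on GRCm38, had 3.26, 3.05 and 3.56 CPM in WT and 0.504, 1.06 and 0.648 CPM in KO. All KO libraries lay below WT, and Prdm1 fell to 22.4% of its WT level (log2 change -2.16 ± 0.26, edgeR adjusted p = 0.000592, 95% interval -2.77 to -1.55). KO replicate 2, the highest KO library for Prdm1, was still far below the lowest WT library. Prdm9, the enzyme that marks meiotic recombination sites, was detected in these T cells at 8.30, 8.89 and 9.28 CPM in WT and 3.75, 3.39 and 3.47 CPM in KO. Without overlap it fell to 40.1% of WT (log2 change -1.32 ± 0.12, edgeR adjusted p = 0.000142). Prdm16, a determinant of brown fat and of hematopoietic stem cell maintenance, had 23.8, 10.6 and 21.8 CPM in WT and 8.94, 8.27 and 9.43 CPM in KO. WT replicate 2 came close to the KO range, and Prdm16 fell by 1.07 ± 0.28 on the log2 scale (edgeR adjusted p = 0.0172). Without WT replicate 3, or without any single KO library, this call was lost, and without WT replicate 2 the log2 change was -1.37 (edgeR adjusted p = 4.0e-05).

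In the other direction, Prdm11, one of the least abundant tested members per kilobase, rose 1.89-fold from 6.13 ± 0.936 to 11.6 ± 0.920 CPM (log2 change 0.91 ± 0.14, edgeR adjusted p = 0.00177). Prdm15, a regulator of the pluripotent state of mouse embryonic stem cells, had 27.4, 28.7 and 24.8 CPM in WT and 48.0, 39.9 and 47.8 CPM in KO. Its groups did not overlap and the rise was 1.68-fold (log2 change 0.75 ± 0.10, edgeR adjusted p = 0.000855). Prdm10 (log2 change 0.35 ± 0.10, edgeR adjusted p = 0.0265) and Prdm4 (log2 change 0.21 ± 0.06, edgeR adjusted p = 0.0236) rose by smaller amounts. Both calls were lost with spike-in scaling, without WT replicate 3 and without KO replicate 1 or 3, and that of Prdm10 also without KO replicate 2. Prdm2 did not pass the test (log2 change 0.22 ± 0.10, edgeR adjusted p = 0.111). Prdm6 had 0 counts in every library, which allows up to 3 counts or 0.0695 to 0.0850 CPM depending on the library, for counting error only. Prdm12 and Prdm13 had at most 2 counts, Prdm8 at most 7 and Prdm14 at most 8 in any library.

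**Figure D4:**
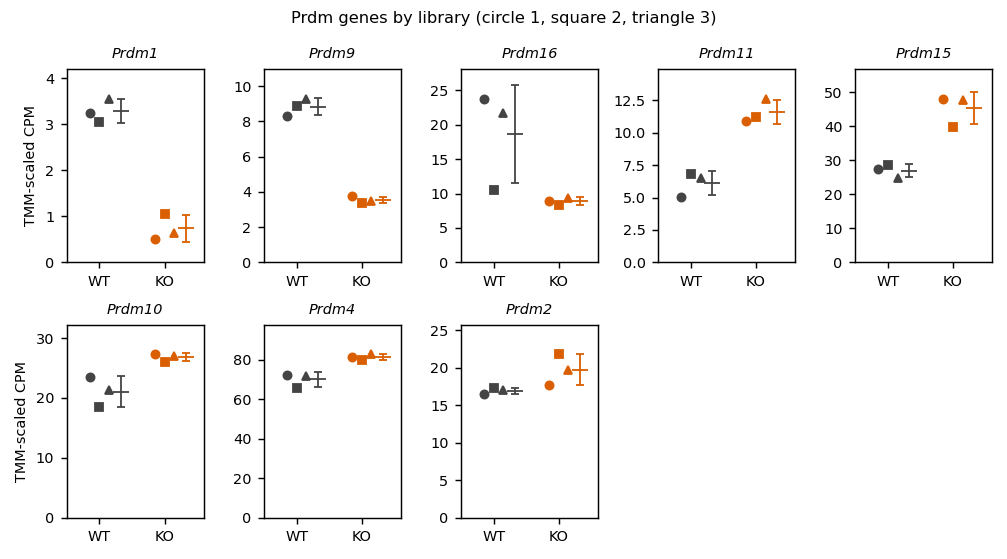
TMM-scaled CPM of tested Prdm genes in each library (circle, square and triangle are replicates 1, 2 and 3), with mean and SD as bars. Prdm1 and Prdm9 lie lower and Prdm11 and Prdm15 higher in all KO libraries, and WT replicate 2 is the low WT library for Prdm16.

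Markers of several other cell types also differed between the genotypes. Plasma cells, which Prdm1 is known to drive, were nearly unmarked. Their 3 markers summed to between 1.30 and 2.66 CPM in WT and between 2.52 and 3.31 CPM in KO, Sdc1 made up most of this without a call, and Tnfrsf17 was at or under 3 counts in every library. B cell markers rose in 5 of 7 cases, with sums of 4.35 to 23.8 CPM in WT and 41.4 to 115 CPM in KO. Gamma delta T cell markers rose in 4 of 4 tested cases (12.6 to 16.5 CPM in WT, 57.2 to 102 CPM in KO), myeloid and dendritic markers in 5 of 6 with Fcgr1 at 0 (1.498 to 6.34 CPM in WT, 11.2 to 37.6 CPM in KO) and CD8 markers in 2 of 2 (5.58 to 7.88 CPM in WT, 14.7 to 17.2 CPM in KO). Granulocyte and mast cell markers gave 3 higher and 1 lower of 4 tested (16.2 to 49.96 CPM in WT, 11.5 to 41.7 CPM in KO). NK markers gave 1 higher and 2 lower of 3 (61.8 to 81.0 CPM in WT, 42.2 to 63.9 CPM in KO), and erythroid markers stayed at or under 0.371 CPM in sum. Of 5 stromal markers, Pecam1 made up most of the sum (138 to 156 CPM in WT, 202 to 238 CPM in KO) and was called higher, and Col1a2 and Pdgfra were at or under 3 counts in every library. T cell markers summed to 1792 to 1966 CPM in WT and 1864 to 1976 CPM in KO. Of these 6 markers 2 were called higher (Trbc2 and Cd3e) and 1 lower (Cd28). Th17 markers summed to 409 to 568 CPM in WT and 173 to 223 CPM in KO. Of the 7 Th17 markers Il17f, Il17a, Il23r and Il1r1 fell and Rora and Ccr6 rose, and Il17f alone went from a mean of 338 to 15.6 CPM. The part of other cells in the member changes was not tested, and in these bulk samples fewer cells of a type and less RNA per cell cannot be told apart.

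Genes of DNA replication and mitosis also moved, with 18 of 22 listed genes lower, 1 higher and a median log2 change of -0.46. Of all genes 20.9% were called lower and 21.7% higher. Their summed level was 10726 to 11476 CPM in WT and 7746 to 8314 CPM in KO. Its part in the levels of Suv39h2, Ezh2 or Kmt5a was not tested. RNA of 4 Y-linked genes was at 0 in all WT libraries and at 585, 77.1 and 610 CPM in the KO libraries. The sex of the source animals and the genotype cannot be told apart in the full comparison. When KO replicate 2, which had the least Y-linked RNA, was compared alone with WT, 11 members were called higher and 4 lower. With a covariate for Y-linked RNA, the counts were 12 and 4. That covariate was 0 in all WT libraries and 0.959, 0.126 and 1 in the KO libraries. Its fit thus also leaned mostly on KO replicate 2, and these settings are not separate checks. Setd1b, Kmt2b, Kdm3b, Kdm1b, Prdm4, Prdm10, Prdm16, Setd3, Setd6 and Smyd2 lost their calls in both, and Prdm11 in the first. These settings also called fewer genes in all (16.3% and 21.7%).

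Across all 16 alternatives, 13 members kept their call, 11 higher and 2 lower. The higher ones included the writers Kmt2a, Kmt2c, Kmt2d, Nsd1, Setdb2 and Ezh1, the subunit Eed, the erasers Kdm4a and Kdm4d, and Prdm15. The lower ones were Prdm1 and Prdm9.

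WT replicate 2 stood apart from the other WT libraries for several members. Compared with the mean of the other libraries of its genotype, 9 of 56 members (16.1%) deviated by more than 0.5 on the log2 scale in WT replicate 2, beside 18.5% of all tested genes. In WT replicates 1 and 3 the counts were 5 (8.93%, beside 15.6%) and 2 (3.57%, beside 12.1%), and each KO library had 1. Low in WT replicate 2 were Kmt5a (0.373-fold), Prdm16, Kmt5c, Suz12, Kdm4b, Kdm2b and Ezh2, and high were Kdm8 and Smyd5 (2.68-fold). Without this library 31 members were called, all 26 of the full comparison among them, and Suz12, Kmt5a, Setd2, Setd5 and Kdm7a were gained. Over all tested genes the first principal component (75.3% of the variance) separated the genotypes. The second (9.53%) spread the WT libraries, at 31.0, -36.4 and 9.80, with WT replicates 1 and 2 on opposite sides and the KO libraries near 0.

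**Figure D5:**
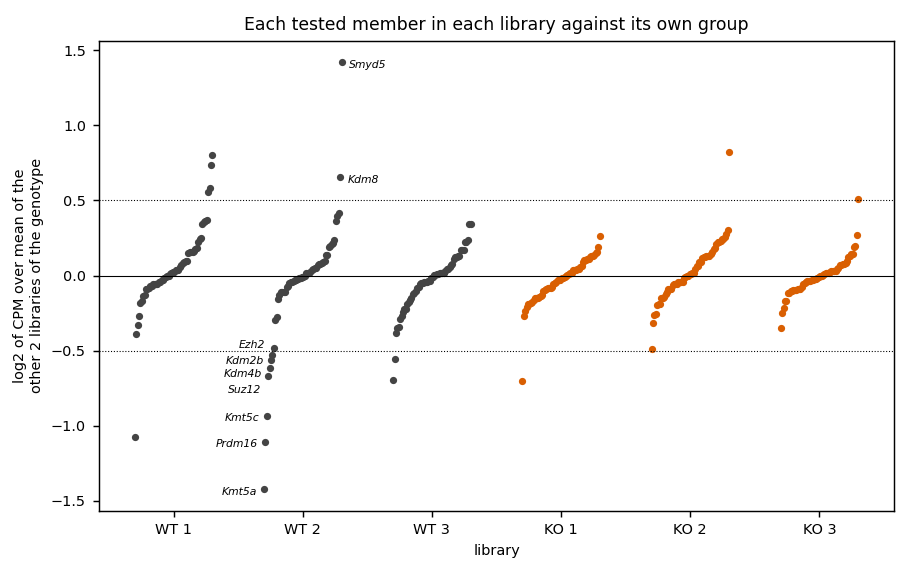
Log2 ratio of each tested member in each library to the mean of the other libraries of its genotype, 1 point per member, sorted within a library. Dotted lines mark 0.5 and -0.5, and WT replicate 2 has 7 members below and 2 above these lines, which are named.

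Partners of these enzymes were read in the same fit from lists of complex subunits. Of 75 tested partner genes 29 were called, 11 higher and 18 lower. That is 38.7%, beside 42.5% of all genes and 47.4% of the protein-coding ones. The partners as a whole were thus not called more often than genes in general. COMPASS partners, the subunits that Kmt2 and Setd1 enzymes need, gave 0 higher and 4 lower of 11, and 7 were not called. Of all genes 21.7% were called higher and 20.9% lower. Wdr82, which ties Setd1a and Setd1b to RNA polymerase II, fell from 634 ± 12.0 to 317 ± 14.0 CPM (log2 change -0.998 ± 0.05, edgeR adjusted p = 2.03e-05). Ash2l, a core subunit of all these complexes, fell from 120.0 ± 6.67 to 91.8 ± 2.42 CPM (log2 change -0.39 ± 0.06, edgeR adjusted p = 0.00179), and Psip1, a chromatin tether of Kmt2a, fell by 0.30 ± 0.06 on the log2 scale (edgeR adjusted p = 0.00531). No Kmt2 or Setd1 gene was called lower and no listed COMPASS partner was called higher. Whether these short lists differ from genes in general was not tested.

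Of 8 PRC2 partners 2 fell and 1 rose. Jarid2, which recruits PRC2, fell from 261 ± 22.6 to 146 ± 4.62 CPM (log2 change -0.84 ± 0.07, edgeR adjusted p = 0.000129), and Aebp2, which marks the same form of the complex, fell from 526 ± 14.8 to 366 ± 31.1 CPM (log2 change -0.52 ± 0.07, edgeR adjusted p = 0.000871). Rbbp4, a histone chaperone shared with other complexes, rose from a mean of 111 to a mean of 156 CPM (log2 change 0.49 ± 0.07, edgeR adjusted p = 0.000981). PRC1, the Polycomb complex that ubiquitinates histone H2A, had 3 genes higher and 4 lower of 18. There Bmi1 rose (log2 change 0.55 ± 0.06, edgeR adjusted p = 0.000365) and Rybp fell (log2 change -0.94 ± 0.12, edgeR adjusted p = 0.000810).

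Readers and partners of H3K9 methylation gave 3 higher and 3 lower of 11 tested. Atf7ip, the partner of Setdb1 (log2 change 0.38 ± 0.06, edgeR adjusted p = 0.00275), and Mphosph8, a reader in the HUSH silencing complex (log2 change 0.41 ± 0.07, edgeR adjusted p = 0.00340), rose, while the heterochromatin protein Cbx3 fell (log2 change -0.30 ± 0.07, edgeR adjusted p = 0.00921). Among 8 LSD1 partners Phf21a (log2 change 0.68 ± 0.09, edgeR adjusted p = 0.000941) and Rcor3 (log2 change 0.51 ± 0.09, edgeR adjusted p = 0.00352) rose and Hmg20b fell (log2 change -0.73 ± 0.24, edgeR adjusted p = 0.0395). Of 7 DOT1L partners Aff3 was the one called, rising from 44.7 ± 2.86 to 115 ± 8.49 CPM (log2 change 1.36 ± 0.08, edgeR adjusted p = 3.14e-05). Outside the name rule, 12 further SET or JmjC genes were tested, of which 1 rose and 4 fell. The riser was the H3K36 methyltransferase Ash1l, from 102 ± 4.20 to 166 ± 2.57 CPM (log2 change 0.70 ± 0.05, edgeR adjusted p = 7.78e-05), and the fallers included Jmjd8 (log2 change -1.05 ± 0.11, edgeR adjusted p = 0.000271) and Riox1 (log2 change -0.60 ± 0.07, edgeR adjusted p = 0.000636).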

How the data were processed

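RNA sequencing libraries (TruSeq Stranded after Ribo-Zero, per the labels' protocols) of 3 WT and 3 KO cultures gave 1 deposited table. Its raw columns hold whole-number counts per gene, deposited by the authors. The submitters' processing notes give GRCm38.p3 as the build and list STAR, featureCounts, DESeq2 and DESeq with no version or role, and whether counting used the strand is not given in the sources used here. The authors' normalized signal columns were not used. The log2 fold change and adjusted p-value columns deposited by the authors served a side-by-side count only.

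The raw counts of genes, without 92 spike-in entries, entered edgeR 4.0.16 in R 4.3.3 with filterByExpr (minimum count 10, minimum total 15), TMM scaling and genotype as the term. P-values were adjusted over 16006 genes, and calls were made at 0.05. The SE was the coefficient without prior counts over the square root of F. Alternatives were DESeq2 1.42.0, limma-voom (limma 3.58.1), other scalings and filters, each library left out, KO replicate 2 as the only KO library, a Y-linked covariate and the replicate number as a block. The fit was tested on simulated counts of 15156 genes, of which only 100 were changed 1.5-fold and 100 changed 2-fold. It called 59% of the former and 81% of the latter. Of the calls there 5.41% were false. A member without a call can therefore still have changed by such amounts. CPM per kilobase used the deposited gene length. Positions came from GENCODE M21 and promoters from RefSeq. Members, gene lists, markers and alternatives were chosen with earlier results of these data known. Library values are given for 19 members chosen by name and for up to 10 called members with the lowest p in each direction at a mean of at least 1 CPM. Of each partner list up to 3 called genes with the lowest p are named. Some genes that these rules take are not reported here. Other members are named as their residue group is described. Smyd5, Kdm2b and Kdm8 have their library ranges printed by a choice made after their values were seen.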

Additional observations from a re-analysis of the deposited data

How the results depend on the processing

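Of 496 recomputed values of 31 single members, 439 kept direction and call, 32 lost a call, 5 gained one and 20 changed sign without a call on either side. Members called higher were 17 and lower 9, with 29 partner genes. DESeq2, RLE scaling and limma-voom called the same 26 members. Spike-in scaling moved the median of all genes to 0.14 and called 27.8% of all genes instead of 42.5%. It left 15 higher, 3 lower (Prdm1, Prdm9 and Prdm16) and 16 partner genes. KO replicate 2 as the only KO library left 11, 4 and 15, and the Y-linked covariate 12, 4 and 15. The single KO library was assumed to vary like the WT group. Leaving out 1 library gave 14 to 18 higher, 6 to 13 lower and 22 to 36 partner genes. The cause of these differences was not tested. Deviations of same-numbered WT and KO libraries from their genotype means correlated at -0.0242, 0.00599 and 0.0815. Libraries of different numbers gave -0.0570 to 0.0451. Such values do not settle whether the samples were paired. The replicate block gave 17 higher, 8 lower (Kdm1b lost) and 27 partner genes.

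Among these 31 members, sign changes of values without a call in the full comparison were as follows. Kdm5b was at 0.028 with upper-quartile scaling, 0.11 with spike-in scaling, 0.0084 with the filter at 1 CPM, 0.043 with KO replicate 2 alone and 0.049 with the Y-linked covariate. Kdm1a was at 0.0094 with upper-quartile and 0.10 with spike-in scaling. With spike-in scaling Suz12 was at 0.074, Ehmt2 at 0.020 and Kmt5a at 0.0023, and with limma-voom Kmt5a was at 0.021. Dot1l was at -0.0049 with KO replicate 2 alone and at -0.046 with the covariate. With 1 library left out, Suz12 ran from -0.26 to 0.065, Kmt5a ran from -0.48 to 0.15, Kdm6b ran from -0.062 to 0.091, Setd1a ran from -0.0057 to 0.088 and Kdm5b from -0.044 to 0.016. Of the members not among the 31, 10 changed sign in 1 to 9 settings, none of them called in the full comparison.

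Low counts limited 6 members to no test. At 3 cultures per genotype, intervals of members that vary within WT, such as Kmt5a and Smyd5, allow changes of either sign.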

Other observations

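In the authors' deposited table all 56 tested members had a fold change, and 26 had an adjusted p under 0.05. These were the same 26 members as called here, each with the same sign. Smyd1, a muscle methyltransferase below the low-count filter, had 8, 9 and 7 counts in WT and 5, 21 and 15 counts in KO. Per kilobase in WT, Setd3 (69.5 ± 1.51 CPM), Eed (62.8 ± 2.04 CPM) and Ezh2 (58.5 ± 12.0 CPM) led the members, and Setd1b (0.297 CPM), Prdm11 (0.525 CPM) and Prdm1 (0.622 CPM) closed the order. Kdm4a moved from rank 10 to 7 of 56, and Nsd2 from rank 7 to 11.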
